A study of Arabidopsis thaliana with 2 samples.

Results

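Plastid-encoded transcripts are the RNAs of the chloroplast's own small genome, and they were taken here as every locus of the deposited table whose identifier starts with ATCG, 120 of 26743 features. They were compared between jmj17-1 seedlings and WT seedlings of Arabidopsis thaliana, both in the Col-0 background, with 1 library per genotype. The jmj17-1 line is mutant for JMJ17, which removes methyl groups from histone H3, and the labels give no other allele. Whole seedlings of both genotypes were collected at an age of 7 days from sucrose-free 1/2MS plates kept in long days (16 h light, 8 h dark). Levels are in RPKM, a read count scaled by the authors for feature length and library depth. JMJ17 itself, read as a check of the labels, stood at 2.90 RPKM in jmj17-1 and 5.48 RPKM in WT. Its fold of 0.529 had the direction of the labels but was short of 2-fold, so the check is weak. Nothing here could be checked against replicates, so no p-value was calculated and every value describes these 2 libraries alone. The depth recovered from the values was 45403267 reads in jmj17-1 and 53890006 reads in WT.

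The chloroplast genome encodes part of the photosynthetic complexes, part of the chloroplast ribosome, the core of a bacterial-type RNA polymerase and the rRNAs and tRNAs for its own translation. A further phage-type RNA polymerase, the sigma factors and most proteins of the organelle are encoded in the nucleus. A long repeat present in opposite orientations carries the rRNA operon, so the genes in it exist in 2 copies per genome. The library kit named in the labels is sold with a step that selects polyadenylated RNA. In chloroplasts a poly(A) tail is added mostly to RNA on its way to decay, so levels in such libraries need not follow the amount of plastid RNA in the seedling.

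The table gives plastid loci by identifier alone, and 0 of the 120 identifiers matched a locus tag of the RefSeq annotation of TAIR10.1, which lists 129 plastid genes under other tags. Genes were therefore assigned only where the data and the reference allowed it. Comments on nuclear genes in the annotation named the product of 6 loci. A nuclear pseudogene of the locus ATCG00420 aligned to ndhJ, at 88.2% identity over 169 bases. A further 18 loci, 9 pairs, were assigned from feature lengths, as described below, and 1 locus because its values were identical to those of a locus with a named product. This gave 26 loci with a product or RNA class, of which 4 were rRNA, 10 tRNA, 6 ribosomal protein and 6 other loci. The other 94 loci were not paired with a gene, and the photosystem, ATP synthase and RNA polymerase classes were therefore not contrasted here. In the NDH class ndhJ was the locus assigned. No locus was assigned to the 16S or 23S rRNA, which the annotation also gives in 2 copies, so the rRNA class below holds the 4.5S and 5S rRNA alone. The 94 loci, the 4 most abundant included, can hold further rRNA and tRNA genes.

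The sequences of 4 genes that carry the results below show what was counted. All are from RefSeq, TAIR10.1, on the chloroplast genome of 154478 bases, and each exists in 2 identical copies, of which 1 position is given. They are the 4.5S rRNA at chloroplast:107599-107701 on the plus strand, the 5S rRNA at chloroplast:130580-130700 on the minus strand, tRNA-Ala (trnA) at chloroplast:103665-104538 on the plus strand, and rpl23, which encodes ribosomal protein L23, at chloroplast:85862-86143 on the minus strand. For trnA the 2 exons are joined, and capitals mark the second exon.
4.5S rRNA: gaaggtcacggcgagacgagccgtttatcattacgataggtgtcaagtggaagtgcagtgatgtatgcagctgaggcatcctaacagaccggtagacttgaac
5S rRNA: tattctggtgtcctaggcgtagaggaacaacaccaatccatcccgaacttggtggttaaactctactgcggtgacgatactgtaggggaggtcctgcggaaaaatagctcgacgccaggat
trnA: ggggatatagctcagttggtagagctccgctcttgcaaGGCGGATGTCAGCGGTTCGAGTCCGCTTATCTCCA
rpl23: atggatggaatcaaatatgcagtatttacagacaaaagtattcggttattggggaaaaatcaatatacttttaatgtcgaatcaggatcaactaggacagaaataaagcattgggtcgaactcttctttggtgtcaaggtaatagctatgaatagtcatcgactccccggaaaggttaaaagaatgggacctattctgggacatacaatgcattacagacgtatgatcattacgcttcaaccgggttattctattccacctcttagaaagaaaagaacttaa

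As a set, the plastid loci held 0.108% of the summed RPKM in jmj17-1 and 0.121% in WT. Their summed level was 715 RPKM in jmj17-1 and 807 RPKM in WT, a ratio of 0.886. Whether the amount of plastid RNA differed was not tested. The kit is sold with a step that selects polyadenylated RNA, and levels in such libraries need not follow that amount. In whole seedlings, a difference in plastids or green cells and one in plastid RNA per cell cannot be told apart. The 4 most abundant loci held 61.1% of the plastid sum in jmj17-1 and 69.7% in WT and summed to 437 RPKM in jmj17-1 and 563 RPKM in WT. The other 116 loci summed to 278 RPKM in jmj17-1 and 245 RPKM in WT, a ratio of 1.14. Without those 4 loci the summed difference had the opposite direction.

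**Figure D1:**
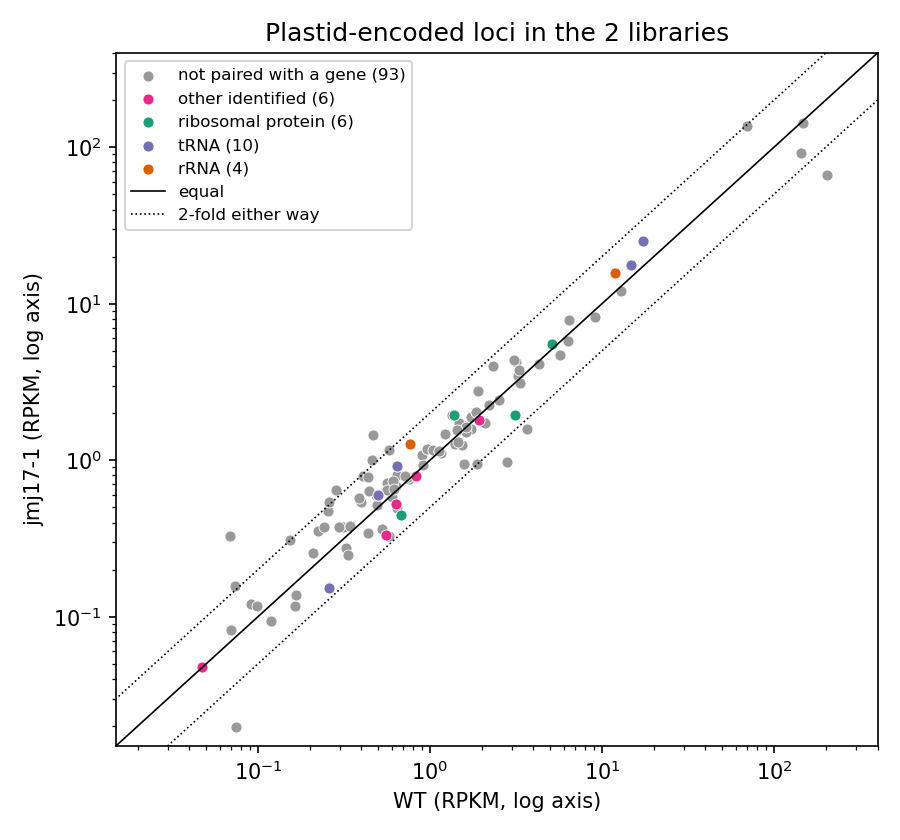
RPKM in jmj17-1 (vertical, log axis) against WT (horizontal, log axis) for the 119 plastid loci above 0 in both libraries, coloured by class, with lines at equality and at 2-fold. Most loci lie near the line of equality, the 4 most abundant spread to both sides of it, and scatter is widest below 0.5 RPKM.

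Taken singly, the 4 most abundant loci had folds on both sides of 1. ATCG01210 stood at 66.6 RPKM in jmj17-1 and 202 RPKM in WT, a fold of 0.329. ATCG00920 stood at 136 RPKM in jmj17-1 and 69.8 RPKM in WT, a fold of 1.95. ATCG01180 was at 92.5 RPKM in jmj17-1 and 143 RPKM in WT, a fold of 0.645, while the remaining locus was nearly level, at 142 RPKM in jmj17-1 and 147 RPKM in WT. None of the 4 was paired with a gene, and none belonged to the pairs with identical values described below. Whether some of them are copies of 1 gene was not tested. Copies share reads that counting can split unequally, so the single folds are uncertain, and the sum of the 4 loci had a ratio of 0.776. 1 further locus above 10 RPKM, also not paired with a gene, stood at 12.0 RPKM in jmj17-1 and 12.9 RPKM in WT. In the authors' deposited table of p-values, ATCG01210, ATCG01180 and ATCG00920 were the 3 plastid loci in the lists named for 0.01 and for 0.05, with unadjusted p-values of 2.22e-16, 9.00e-04 and 4.06e-06. Those p-values are the authors' own and compare the 2 libraries, not the genotypes.

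The 2-fold rule was an absolute log2 ratio of at least 1 on the log2(RPKM + 1) scale, jmj17-1 over WT, applied to features with a mean of at least 1 RPKM. This scale understates the change of low loci. Of the 120 plastid loci 57 reached that mean and 63 did not. Of the 57, 1 was at least 2-fold lower (ATCG01210, log2 ratio -1.59, uncertain as a single locus) and 0 were at least 2-fold higher, 1.75% against 0.97% of all 18969 features analysed (0.39% higher and 0.58% lower). By direction, 33 of the 57 lay above 0, 57.9%, against 60.5% of all features, and 24 lay below. The median log2 ratio was 0.07 for the plastid loci and 0.04 for all features. Both the share above 0 and the median of the plastid set were near those of the whole table.

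The spread among the members differed with level. The 34 loci with a mean under 0.5 RPKM had plain folds between 0.264 and 4.75, with an SD of their plain log2 ratios of 0.79. The 6 loci between 5 and 10 RPKM had folds between 0.824 and 1.21, with an SD of 0.21. Above 10 RPKM there were 11 loci, 7 above 0 and 4 below, with folds between 0.329 and 1.95. Of all features analysed, 60.5% lay above 0. Both extremes were among the 4 most abundant loci, whose single folds are uncertain. The other loci above 10 RPKM had folds between 0.931 and 1.46. Of the 11, 6 had an assigned gene, and these 6 were copies with identical values. All 6 lay above 0, so each of their genes counts as 2 of the 7. Near the limit of 1 RPKM, 3 loci had a mean between 0.9 and 1 and 3 a mean between 1 and 1.1. The most divergent of those under 1 RPKM was at 1.46 RPKM in jmj17-1 and 0.464 RPKM in WT and was left out of the 57. 1 locus was listed at 0 in WT and stood at 0.218 RPKM in jmj17-1.

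The inverted repeat was visible in the values themselves. There were 13 pairs of plastid loci, 26 in all, whose RPKM were identical to the last digit in both libraries. The reads behind a value could be recovered for 12 of these pairs, because the values of the 2 libraries stood in a ratio of whole numbers once the depth ratio was taken out. With reads counted in steps of 0.5 per copy, the implied feature length equalled the exonic length of a gene annotated in 2 copies for 9 pairs. A length of 468 bases, that of rps7, fitted 2 pairs, and neither was assigned, and 1 pair fitted no annotated length. The ratio of the 2 libraries fixes the reads only up to a common multiple. For 5 pairs the smallest multiple gave the annotated length, while rpl23, ycf2, the 5S rRNA and the tRNA pair of 74 bases needed a larger one, so their assignment and read numbers are less firm. Matching was limited to these pairs after a wider attempt on other loci had given few and ambiguous matches. Lengths of 72 and 74 bases belong to several tRNA genes of the repeat, and those pairs were assigned to the class and not to 1 tRNA.

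Among the rRNA loci, the 4.5S rRNA, a fragment of the large-subunit rRNA that land plant chloroplasts carry as a separate molecule, stood at 15.8 RPKM per copy in jmj17-1 and 12.0 RPKM per copy in WT. These levels came from 148 reads in jmj17-1 and 133 reads in WT, which gave a fold of 1.32 with a 95% counting interval of 1.04 to 1.68. The 5S rRNA, the small RNA of the large ribosomal subunit, stood at 1.27 RPKM per copy in jmj17-1 and 0.767 RPKM per copy in WT, from 14 and 10 reads. Its fold of 1.66 had an interval of 0.686 to 4.18, so a difference was not detectable at this depth. For the 4.5S rRNA the interval lay just above 1. All intervals are exact Clopper-Pearson intervals of the share of reads converted to a fold, and they cover counting error only, not the spread between seedlings.

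Among the tRNA loci, tRNA-Ala, whose gene lies in the rRNA operon between the 16S and 23S rRNA genes, stood at 25.3 RPKM per copy in jmj17-1 and 17.4 RPKM per copy in WT. With 168 reads in jmj17-1 and 137 in WT, its fold was 1.46 with an interval of 1.15 to 1.84. The most abundant tRNA pair of 72 bases, which has the length of tRNA-Asn, tRNA-Ile and tRNA-Val, stood at 17.7 RPKM per copy in jmj17-1 and 14.8 RPKM per copy in WT. Its fold was 1.197 (0.917 to 1.56, from 116 and 115 reads), an interval that includes 1. The other 3 tRNA pairs rested on 1 to 6 reads in jmj17-1 and 2 to 5 reads in WT, too few to show a direction. The 10 tRNA loci summed to 89.5 RPKM in jmj17-1 and 67.3 RPKM in WT, and the 4 loci of the 4.5S and 5S rRNA to 34.2 RPKM in jmj17-1 and 25.5 RPKM in WT, ratios of 1.33 and 1.34. Without the 16S and 23S rRNA these sums do not give the direction of plastid rRNA as a whole.

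Ribosomal protein loci differed in both directions. The rpl23 gene, for a protein of the large subunit, stood at 1.95 RPKM per copy in jmj17-1 and 3.13 RPKM per copy in WT. With 50 reads in jmj17-1 and 95 in WT, its fold was 0.625 with an interval of 0.434 to 0.889, below 1, if its assignment by length holds. Ribosomal protein L2, also of the large subunit, was nearly level at 5.50 RPKM per copy in jmj17-1 and 5.13 RPKM per copy in WT. Ribosomal protein S11, of the small subunit, stood at 1.96 RPKM in jmj17-1 and 1.37 RPKM in WT, and ribosomal protein L20 at 0.445 RPKM in jmj17-1 and 0.680 RPKM in WT. For these last 3 the reads could not be recovered as whole numbers, and no interval is given. In all, 5 of the 6 loci reached the mean of 1 RPKM, 3 above 0 and 2 below, with a median log2 ratio of 0.09. The share above 0 was 60%, against 60.5% of all features. L2 and L23 each count as 2 loci with identical values here, and the median is the value of L2. The set summed to 17.3 RPKM in jmj17-1 and 18.6 RPKM in WT.

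**Figure D2:**
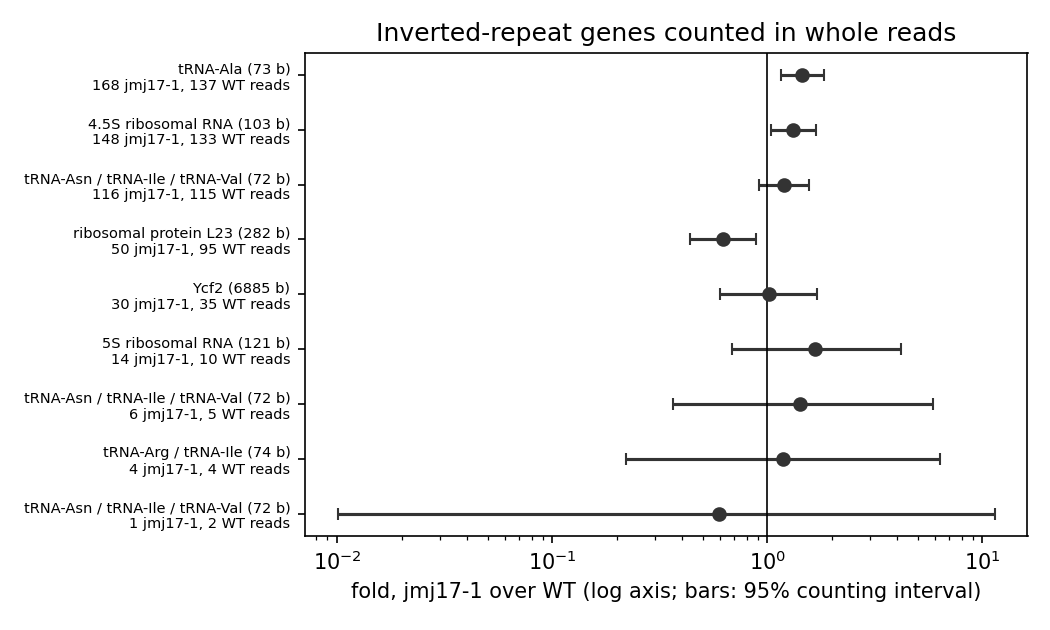
Fold of jmj17-1 over WT (horizontal, log axis) for the 9 gene pairs of the repeat whose reads were recovered, with 95% counting intervals and the reads of both copies in each library. The intervals of tRNA-Ala (1.15 to 1.84) and the 4.5S rRNA (1.04 to 1.68) lie above 1, that of ribosomal protein L23 (0.434 to 0.889) lies below 1, and the other 6 include 1.

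The remaining loci with a named product were low. ClpP, the plastid-encoded subunit of the Clp protease, stood at 1.81 RPKM in jmj17-1 and 1.92 RPKM in WT. The CemA-like protein of the envelope was at 0.793 RPKM in jmj17-1 and 0.828 RPKM in WT. Ycf2, the largest of the assigned genes at 6885 bases, was at 0.0480 RPKM per copy in jmj17-1 and 0.0472 RPKM per copy in WT, from 30 and 35 reads, with a fold of 1.02 (0.603 to 1.71). ndhJ, a subunit of the NDH complex that carries cyclic electron flow, was at 0.526 RPKM in jmj17-1 and 0.633 RPKM in WT. ATCG00430 was at 0.332 RPKM in jmj17-1 and 0.553 RPKM in WT. The annotation's comment calls its product photosystem II reaction center protein G, and 0 genes of the plastid annotation bear that protein's symbol, psbG, so it was counted in no photosynthesis class. These 4 single-copy loci had log2 ratios between -0.22 and -0.03. Of the 57 plastid loci with a mean of at least 1 RPKM, 24 lay below 0, 42.1%, against 39.5% of all features analysed. The 4 single-copy loci all lay below 0, but only ClpP reached the mean of 1 RPKM, so no direction is read from them. No interval is given for them.

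The nuclear genes listed for plastid transcription had slightly higher values in jmj17-1; sigma factors were not in the list. All 15 genes for organelle RNA polymerases and for proteins bound to the plastid-encoded polymerase had a log2 ratio above 0, against 60.5% of all features, with a median of 0.22 and 0 past the 2-fold rule. FSD2, with the lowest log2 ratio of the list, was level at 44.7 RPKM in jmj17-1 and 44.3 RPKM in WT. SCA3, the phage-type polymerase of chloroplasts, stood at 21.6 RPKM in jmj17-1 and 17.5 RPKM in WT. AT5G15700, the second phage-type polymerase listed, stood at 5.70 RPKM in jmj17-1 and 4.83 RPKM in WT. PTAC2, a pentatricopeptide protein of the polymerase complex, had the largest log2 ratio of the list, 0.40, at 27.0 RPKM in jmj17-1 and 20.2 RPKM in WT. PTAC12 (HEMERA), which also acts in phytochrome signalling, stood at 65.5 RPKM in jmj17-1 and 54.5 RPKM in WT. SCA3 and PTAC12 overlap a neighbouring gene, and their values are uncertain, since the sources used here do not say whether reads were counted by strand.

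Nuclear genes for the NDH complex lay on the other side. Of 17 subunit genes 15 had a log2 ratio below 0, against 39.5% of all features, with a median of -0.22 and 0 past the 2-fold rule. NdhM, a subunit of the stromal arm, stood at 43.1 RPKM in jmj17-1 and 56.2 RPKM in WT, and NdhS, which forms the ferredoxin-binding site, at 67.0 RPKM in jmj17-1 and 87.3 RPKM in WT. NdhS overlaps other annotated genes. ndhJ, the plastid-encoded subunit assigned here, had a fold of 0.831, but at a mean of 0.580 RPKM it was not among the features analysed.

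Genes for chloroplast RNA maturation and decay lay on both sides of 0, with more above. Of 14 genes 11 lay above 0, 78.6% against 60.5% of all features, and 3 lay below. Their median was 0.12, and 0 were past the 2-fold rule, against 0.97% of all features. CRR2, a pentatricopeptide protein that matures ndhB transcripts, stood at 9.83 RPKM in jmj17-1 and 7.55 RPKM in WT. HCF107, which stabilises psbH transcripts, stood at 23.6 RPKM in jmj17-1 and 29.7 RPKM in WT. Mitochondria-encoded features, the other organelle set, gave 6 loci of 96 with a mean of at least 1 RPKM. Of these 6, 3 lay above 0, 50% against 60.5% of all features, and 3 below. The summed level of the 96 was 72.1 RPKM in jmj17-1 and 73.9 RPKM in WT, a ratio of 0.976. For the plastid loci the ratio was 0.886 with the 4 most abundant loci and 1.14 without them.

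**Figure D3:**
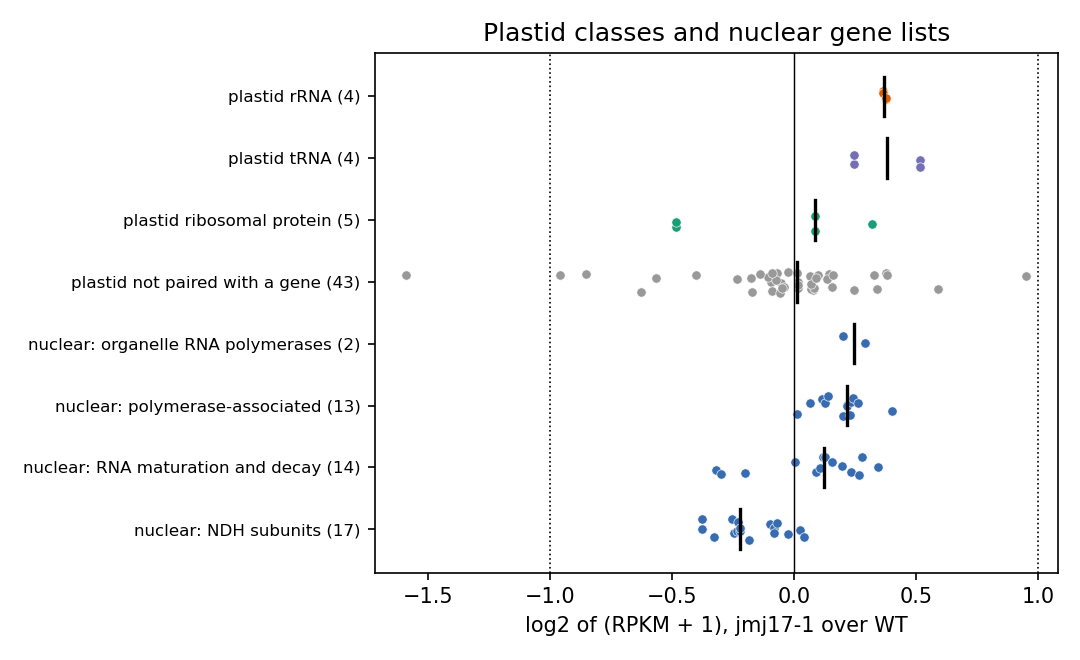
Log2 ratio of (RPKM + 1), jmj17-1 over WT, for each analysed plastid locus by class and for each gene of the nuclear lists, with 4.5S and 5S alone in the rRNA class; the vertical bars mark medians, the dotted lines the 2-fold rule. The 15 polymerase genes lie above 0, 15 of the 17 NDH subunit genes lie below 0, and the plastid loci not paired with a gene (median 0.01) spread from -1.59 to 0.95.

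By class, the medians were 0.37 over the 4 loci of the 4.5S and 5S rRNA, 0.38 over the 4 of 10 tRNA loci that were analysed, 0.09 over 5 ribosomal protein loci and 0.01 over 43 loci not paired with a gene. Copies with identical values count as 2 loci here, so the rRNA and tRNA medians each rest on 2 genes. For the same reason the ribosomal protein median is the value of L2. The ribosomal protein median was -0.07 with no filter on low values, and that of the loci not paired with a gene was -0.03 with the median of all features set to 0. The difference between classes was not tested.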

How the data were processed

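RNA of whole seedlings was sequenced after TruSeq library preparation, per the labels' protocols. The deposited table holds RPKM that the authors made; its build was TAIR10 according to the submitters' processing notes. Aligner, counter, feature lengths and strand use are unknown here. The authors' deposited Z score was not used. The deposited p-value is the authors' own and unadjusted.

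The depth ratio of WT to jmj17-1, 1.19, was the most common ratio among low loci (652 loci). Of these, 505 had a RefSeq length, and 62 gave the same depth of 53890006 reads in WT and 45403267 in jmj17-1. Ratios were accepted as whole within a relative 1e-12. Members and lists were chosen with earlier results of these data known.

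Classes were planned from gene symbols, but no identifier could be joined to one, so products came from annotation comments, 1 pseudogene alignment and feature lengths. This route was built after the values were seen. Lengths were first matched for all loci with whole-read ratios, which gave few and ambiguous matches, and matching was then limited to pairs with identical values. Its multiples, 0.5 to 5 in steps of 0.5, were set after a multiple of 2.5 was seen to give the lengths of rpl23 and ycf2. Splitting values over several isoform lengths was tried and dropped.

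Loci were to be named at a mean of at least 10 RPKM, past the 2-fold rule, or as the extremes of a class or list; few loci not paired with a gene are named, and every assigned product is given. AT5G15700 and PTAC12 are named beside the list extremes because the polymerase list was later divided in 2; it is reported as 1 list. FSD2 was named after its values were seen. Recovery of depth and the 2-fold rule were tried on simulated whole reads with known lengths and no repeated copies. Assignment of genes by length was not simulated. Python 3.11.15, pandas 2.3.3, numpy 2.4.6, scipy 1.17.1 and BLAST+ 2.17.0 were used.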

Additional observations from a re-analysis of the deposited data

How the results depend on the processing

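No paired analysis was possible because each genotype has 1 library, and no library could be left out. The limit on feature length was not run, since lengths were known for few plastid loci. Medians were called unchanged within 0.005, a tolerance chosen here. The count of 1 plastid locus past the 2-fold rule became 3 with a pseudocount of 0.1 RPKM, 2 with the median of all features set to 0, and 0 without the 4 most abundant loci, an alternative chosen after seeing the data. The difference in plastid share, -0.0129 percentage points, was -0.0177 without the loci assigned to rRNA or tRNA (other rRNA and tRNA loci can remain) and reversed to 0.00538 without the 4 most abundant loci.

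With a pseudocount of 0.1 RPKM the median log2 ratios were 0.088 for all plastid loci, 0.53 for rRNA, 0.40 for tRNA, 0.10 for ribosomal protein and 0.015 for loci not paired with a gene. With a pseudocount of 5 RPKM they were 0.026, 0.21, 0.32, 0.053 and 0.0038 in the same order. With the median of all features set to 0 they were 0.024, 0.33, 0.34, 0.044 and -0.032, the last reversed. Rescaled without organelle features they were 0.074, 0.38, 0.39, 0.10 and 0.017. With no filter on low values the median was 0.060 for all plastid loci, 0.22 for tRNA and 0.040 for loci not paired with a gene, and reversed to -0.066 for ribosomal protein. At a mean of at least 10 RPKM it was 0.24 for all plastid loci and reversed to -0.10 for loci not paired with a gene. With identical copies summed and counted once it was 0.44 for rRNA, 0.28 for tRNA and 0.093 for ribosomal protein. Of 82 values for 17 single loci, 81 kept their sign and their side of the 2-fold rule; ATCG00860 (ycf2) turned to -0.041 with the median of all features set to 0. The cause of these changes was not tested.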
